A study of Homo sapiens with 6 samples.

Results

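The Polycomb complex genes were followed through the conversion of human B cell leukaemia cells into macrophages, with and without depletion of the architectural protein CTCF. The set was 10 genes taken by symbol from a table of 30017 genes, listed for their place in the Polycomb machinery by a rule that uses no measured value. It held 5 members of Polycomb repressive complex 2 (PRC2), which were EZH1, EZH2, SUZ12, EED and JARID2, and 5 members of Polycomb repressive complex 1 (PRC1), which were BMI1, RING1, RNF2, CBX7 and CBX8. All 10 were among the 14758 genes that passed the filter on low counts and were tested.

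RNA was sequenced from BLaER CTCF-AID, a subclone of the leukaemia line BLaER1. Its CTCF is fused to a degron that the auxin IAA switches on, which removes the CTCF protein. The cells become induced macrophages (iMacs) when estradiol activates an exogenous CEBPA, a myeloid transcription factor, in the presence of IL-3 and CSF-1. There were 6 libraries of total RNA, 2 biological replicates in each of 3 groups, named here 0 h (no factors and no auxin), 96 h control (factors, no auxin) and 96 h CTCF-depleted (factors with IAA added at the same time). All of the libraries came from 1 subclone, and these libraries include no line without the degron treated with IAA, so effects of IAA itself and of CTCF loss cannot be told apart. In bulk RNA of this kind, fewer cells of a type and less RNA per cell cannot be told apart either.

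PRC2 places methyl groups on lysine 27 of histone H3, a mark of silenced developmental genes, and PRC1 places ubiquitin on histone H2A and compacts chromatin. EZH1 and EZH2 are alternative catalytic subunits of PRC2, EED reads the methyl mark and stimulates the enzyme, SUZ12 holds the complex together, and JARID2 is an accessory subunit that helps to bring PRC2 to its sites. In PRC1, RING1 and RNF2 are alternative ubiquitin ligases, BMI1 is one of the PCGF proteins that partner them, and CBX7 and CBX8 are chromobox proteins that bind methylated H3. EZH2 is known as the form of dividing cells and EZH1 as that of resting cells.

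The promoters of EZH1, EZH2 and EED are shown for the alternative catalytic subunits of PRC2 and for the PRC2 gene called on CTCF depletion. Each run is the 250 bases before the RefSeq transcription start on build GRCh38.p14, printed 5′ to 3′ on the strand of the gene, at chr17:42745041-42745290 (minus strand) for EZH1, chr7:148884292-148884541 (minus strand) for EZH2 and chr11:86244503-86244752 (plus strand) for EED. Capitals mark matches on either strand to the E2F-type string TTCCCGC, its variant TTCGCGC, the further variant TTGCCGC and the last variant TTGGCGC, and to the string CCAAT, and no match overlapped another.
EZH1 promoter: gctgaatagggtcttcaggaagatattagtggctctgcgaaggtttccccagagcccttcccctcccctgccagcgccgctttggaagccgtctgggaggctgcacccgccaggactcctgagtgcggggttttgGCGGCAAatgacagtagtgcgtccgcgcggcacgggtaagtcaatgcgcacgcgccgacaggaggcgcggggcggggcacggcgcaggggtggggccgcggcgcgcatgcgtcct
EZH2 promoter: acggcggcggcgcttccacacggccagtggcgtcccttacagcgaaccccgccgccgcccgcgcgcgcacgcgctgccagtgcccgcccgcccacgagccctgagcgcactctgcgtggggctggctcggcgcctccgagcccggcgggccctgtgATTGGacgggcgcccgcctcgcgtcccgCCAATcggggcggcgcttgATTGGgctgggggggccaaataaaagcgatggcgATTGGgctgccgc
EED promoter: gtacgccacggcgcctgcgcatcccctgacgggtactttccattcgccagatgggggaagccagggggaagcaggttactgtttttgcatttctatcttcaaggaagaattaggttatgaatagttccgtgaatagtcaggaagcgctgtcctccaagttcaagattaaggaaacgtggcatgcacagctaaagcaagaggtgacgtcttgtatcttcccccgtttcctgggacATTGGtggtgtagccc
The EZH2 window printed held 4 CCAAT matches, where 32.0% of 35116 RefSeq windows held at least 1 and 0.874% held at least 4. The window of a further RefSeq start of EZH2, at chr7:148883486-148883735, held 0 matches to either kind of string. The EZH1 window held 1 E2F-type match, 115 to 109 bases before the start, and over all windows of this length 10.9% held at least 1 of these strings. The EED window held 1 CCAAT match, 16 to 12 bases before the start. Windows were found for 9 of the 10 genes, 12 windows in all, of which 3 (EZH1, SUZ12, RNF2) held an E2F-type match and 5 a CCAAT match. A match describes these letters only, and no binding was measured here.

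The libraries held between 9273470 and 12718780 counts. Levels are given as CPM, reads of a gene relative to its library after TMM normalization, and a gene was called higher or lower at an adjusted p under 0.01 with an absolute log2 fold change above 0.6 in edgeR's quasi-likelihood test. CTCF transcripts stood at 231 and 214 CPM at 0 h, 181 and 174 CPM in 96 h control and 191 and 189 CPM in 96 h CTCF-depleted libraries, which checks nothing about depletion because the degron acts on the protein. All 10 B cell markers were lower in 96 h control than at 0 h, where their summed level went from 2980–2983 to 398–401 CPM. All 10 macrophage markers were higher, with a summed level of 80.5–89.7 CPM at 0 h and 5594–5869 CPM in 96 h control. With CTCF depleted the 2 sums were 346–361 and 5374–5421 CPM. Against 96 h control, 1 B cell marker was then called higher and 2 lower, and 2 macrophage markers were called higher and 0 lower. Over all tested genes 5.41% were called higher and 7.03% lower in this comparison. Of 10 markers of T cells, natural killer cells, erythroid cells, epithelium and fibroblasts, 9 were too low to be tested, with at most 4 counts in a library.

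**Figure D1:**
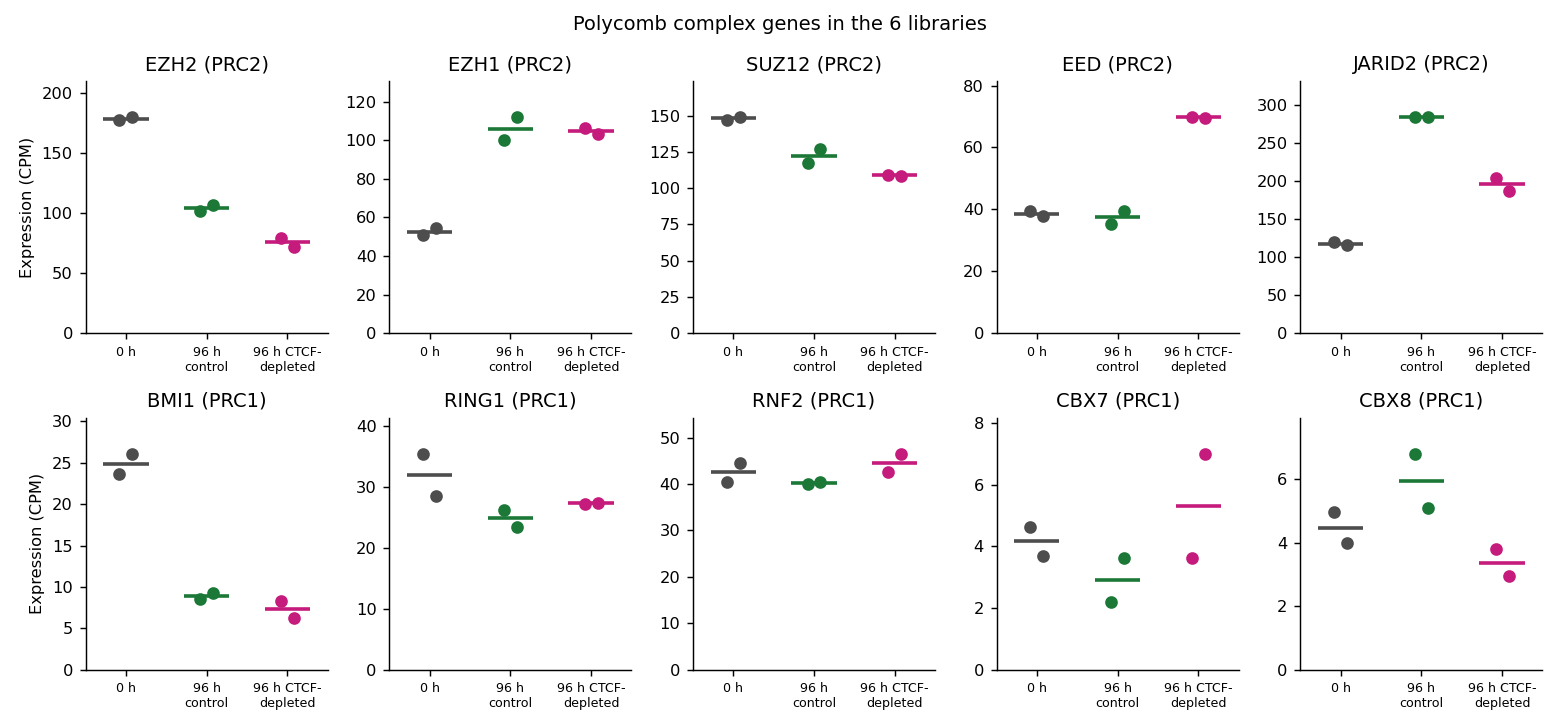
Levels of the 10 Polycomb complex genes in each library, in CPM on linear axes that start at 0, with 1 point per library and a bar at the mean of the 2 libraries of a group. EZH2 and SUZ12 had their highest levels at 0 h and their lowest with CTCF depleted, EZH1 was higher in both 96 h groups, JARID2 peaked in 96 h control, EED was higher in the CTCF-depleted libraries than in the other 4, and BMI1 was low in both 96 h groups.

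Conversion with CTCF present moved the PRC2 genes in both directions and, among the PRC1 genes, lowered BMI1. EZH1 and JARID2 rose and EZH2 fell, whereas SUZ12 and EED were not called. Thus 2 of 5 PRC2 genes rose and 1 fell, where 25.4% of all tested genes rose and 22.9% fell, and 1 of 5 PRC1 genes was called, BMI1, which fell. The median log2 fold change was -0.05 for PRC2 and -0.35 for PRC1, beside 0.02 for all tested genes. Since 48.3% of tested genes were called either way, 4 called genes of 10 were not more than the background.

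Depletion of CTCF during conversion changed fewer genes in all, and the Polycomb genes with them. EED rose and CBX8 fell, the latter a call that was lost with any 1 of the 4 libraries left out. This was 1 of 5 PRC2 genes called higher and 1 of 5 PRC1 genes called lower, where 5.41% of all tested genes rose and 7.03% fell on depletion. Medians were -0.17 for PRC2 and 0.14 for PRC1, beside -0.03 for all tested genes. On the adjusted p alone, with no limit on size, EZH2 and JARID2 were also lower, as were 17.4% of tested genes. The 2 called genes of 10 stand beside 12.4% of tested genes called in either direction.

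CTCF-depleted iMacs compared with the 0 h cells gave the net change, in a comparison that shares its libraries with the other two. EZH1, EED and JARID2 were higher and EZH2 was lower, so that 4 of 5 PRC2 genes were called. BMI1 was the called gene among the 5 of PRC1, and it was lower. In this comparison 27.2% of tested genes rose and 25.2% fell, 52.5% in all. The median log2 fold change was 0.74 for PRC2 and -0.22 for PRC1, beside 0.02 for all tested genes.

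**Figure D2:**
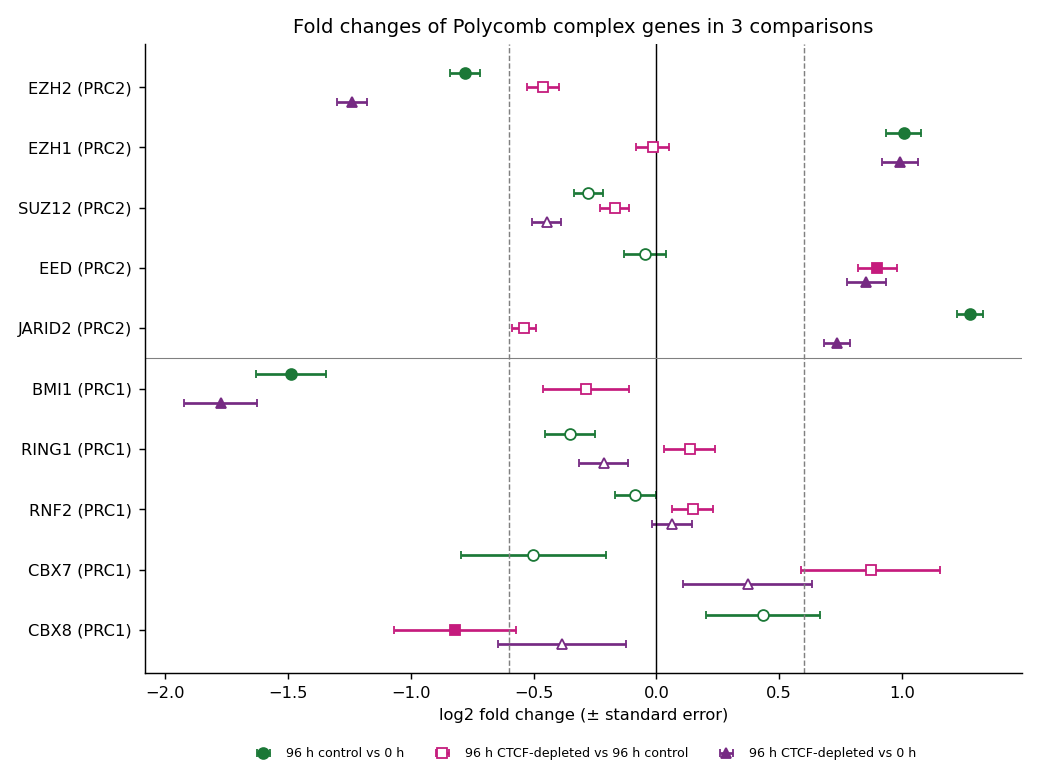
Log2 fold changes of the 10 genes with their standard errors from edgeR in the 3 comparisons, with PRC2 above the horizontal line and PRC1 below it. Filled symbols passed both thresholds, dashed lines stand at ±0.6, and CBX7 and CBX8, the genes with the lowest counts, have the widest bars.

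The 2 catalytic subunits of PRC2 moved in opposite directions at conversion. EZH2 stood at 177 and 179.8 CPM in the 2 libraries at 0 h, at 102 and 106 CPM in 96 h control and at 79.3 and 71.9 CPM in 96 h CTCF-depleted libraries. The 3 groups did not overlap, and each was lower than the one before. The log2 fold change of EZH2 was -0.78 ± 0.06 (SE) in 96 h control against 0 h (edgeR adjusted p = 8.73e-18) and -0.46 ± 0.06 with CTCF depleted against 96 h control (edgeR adjusted p = 2.68e-08). The second step passed the test but was smaller than the 0.6 required for a call, as a level 27.4% below the control. In CTCF-depleted cells against 0 h the difference was -1.24 ± 0.06, which was called (edgeR adjusted p = 5.63e-26).

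EZH1 went the other way at conversion and was not called on depletion. It stood at 50.6 and 54.7 CPM at 0 h, 100.1 and 112 CPM in 96 h control and 106 and 104 CPM in CTCF-depleted libraries. Both 96 h groups lay above 0 h and overlapped each other. Its log2 fold change was 1.01 ± 0.07 in 96 h control against 0 h (edgeR adjusted p = 6.02e-19), a 2.01-fold increase, and -0.01 ± 0.07 on depletion (edgeR adjusted p = 0.895), a value near 0 whose sign changed with the processing.

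The balance of the catalytic pair was compared on the scale of CPM per kilobase of exon. EZH2 was 5.53 and 5.20 times as high as EZH1 in the libraries at 0 h. The ratio was 1.61 and 1.499 in 96 h control and 1.18 and 1.10 with CTCF depleted. The means were 5.37 ± 0.231, 1.55 ± 0.0789 and 1.14 ± 0.0564 (SD, n = 2), with no overlap between groups. On the log2 scale the ratio differed by -1.79 between 96 h control and 0 h and by -0.45 between CTCF-depleted and 96 h control, in each case at p = 0.333 in a two-sided exact permutation test over libraries, which is the smallest p that 2 against 2 libraries allow. EZH2 remained the larger of the pair per kilobase in all 6 libraries. On raw counts, with no account of length, the mean ratio was 3.39, 0.982 and 0.719. EZH1 accounted for 15.7% ± 0.571 of the pair at 0 h, 39.2% ± 1.21 in 96 h control and 46.8% ± 1.23 with CTCF depleted (SD, n = 2).

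SUZ12, the scaffold of PRC2, differed by small steps between the groups. Its levels were 147 and 149 CPM at 0 h, 118 and 127 CPM in 96 h control and 109 and 108 CPM in CTCF-depleted libraries. The groups did not overlap, and none of the differences reached the size required for a call. Log2 fold changes were -0.28 ± 0.06 at conversion (edgeR adjusted p = 2.72e-05), -0.17 ± 0.06 on depletion (edgeR adjusted p = 0.0189) and -0.45 ± 0.06 for CTCF-depleted against 0 h (edgeR adjusted p = 1.03e-09). The counts of SUZ12 are uncertain to the extent that reads were shared with its pseudogene SUZ12P1, which held 307 to 541 counts per library and was called higher at conversion (0.60 ± 0.09, edgeR adjusted p = 1.78e-08).

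EED was the member called higher on depletion. It stood at 39.5 and 37.7 CPM at 0 h and 35.2 and 39.5 CPM in 96 h control, which overlapped, and at 69.8 and 69.6 CPM in the 2 CTCF-depleted libraries, which lay far above both. The log2 fold change was 0.90 ± 0.08 on depletion (edgeR adjusted p = 3.84e-14), a 1.87-fold difference, against -0.05 ± 0.09 at conversion (edgeR adjusted p = 0.640). The difference on depletion was called under each of the other normalizations, filters, fits and left-out libraries tried with the same thresholds, at log2 fold changes from 0.85 to 1.01. EED lies at chr11:86201212-86278813 (plus strand, GENCODE release 44), between PICALM, 131329 bases before it, and HIKESHI, 23397 bases after it. Neither neighbour was called on depletion: PICALM, an adaptor of clathrin-mediated endocytosis, had a log2 fold change of 0.01 ± 0.05 and HIKESHI -0.18 ± 0.15 (edgeR adjusted p = 0.884 and 0.366). The GENCODE gene model of EED begins upstream of the RefSeq start whose window is printed here, and gene counts do not tell starts apart.

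JARID2 had the highest level of the set per kilobase of exon in 96 h control. Its levels were 119.8 and 116 CPM at 0 h, 285 and 284 CPM in 96 h control and 205 and 187 CPM in CTCF-depleted libraries, with no overlap between groups. It rose by 1.28 ± 0.05 on the log2 scale at conversion, a 2.42-fold change (edgeR adjusted p = 4.73e-30). On depletion its log2 fold change was -0.54 ± 0.05 (edgeR adjusted p = 1.07e-13), short of the size for a call. CTCF-depleted iMacs thus kept a level that was called above 0 h (0.74 ± 0.05, edgeR adjusted p = 7.64e-19). JARID2 spans chr6:15246069-15522042, the longest gene of the 10.

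Levels of the members were ordered per kilobase of exon. At 0 h EZH2 was the highest at 58.2 ± 0.640 CPM per kb (SD, n = 2), followed by SUZ12 at 33.0 ± 0.272 and JARID2 at 19.2 ± 0.492. RING1 overlapped JARID2, and RNF2, EZH1 and EED came next, lying below RING1 and above BMI1 without overlap, whereas RNF2 overlapped EZH1 and EZH1 overlapped EED. In 96 h control JARID2 led at 46.5 ± 0.0272 CPM per kb, ahead of EZH2 at 33.9 ± 1.01 and SUZ12 at 27.2 ± 1.52, and no neighbours in the order overlapped. With CTCF depleted JARID2 led at 32.0 ± 2.03, and EZH2 (24.6 ± 1.71) and SUZ12 (24.2 ± 0.160) overlapped each other. BMI1, CBX8 and CBX7 held the last 3 places in every group, at group means of no more than 6.76 CPM per kb. The place of EED depended on the length used: in CTCF-depleted libraries it was the fifth at 19.3 CPM per kb over all of its 3609 coding-transcript exon bases, and the first at 33.4 CPM per kb over the 2088 bases of its MANE Select transcript.

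BMI1, also known as PCGF4, was the PRC1 gene with the largest difference at conversion and against 0 h, though not on depletion. It stood at 23.6 and 26.1 CPM at 0 h, 8.56 and 9.26 CPM in 96 h control and 8.33 and 6.26 CPM in CTCF-depleted libraries. Both 96 h groups lay below 0 h and neither overlapped it. The log2 fold change was -1.49 ± 0.14 at conversion, a 2.80-fold decrease (edgeR adjusted p = 4.90e-14), and -0.29 ± 0.17 on depletion (edgeR adjusted p = 0.200). COMMD3, a gene of copper metabolism and endosomal sorting that ends 792 bases before BMI1 on the same strand, had similar values, at -1.65 ± 0.14 (edgeR adjusted p = 1.34e-15) and -0.47 ± 0.18 (edgeR adjusted p = 0.0370). The read-through gene COMMD3-BMI1, whose gene model overlaps both, held 1 count over all libraries. How reads in shared exons were assigned is not stated, so this count does not show whether BMI1 or COMMD3 lost reads. Their levels, also per kilobase, are uncertain to that extent.

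The other PCGF genes were compared with BMI1, because the PCGF subunit defines which form of PRC1 is built. PCGF2, the closest relative of BMI1 and like it a part of canonical PRC1, fell from 21.5 and 20.8 CPM to 3.62 and 3.06 CPM at conversion (-2.65 ± 0.18, edgeR adjusted p = 6.74e-20). It stood at 3.43 and 3.96 CPM with CTCF depleted. Per kilobase of exon, BMI1 and PCGF2 made up 11.5% ± 0.938 and 10.2% ± 0.122 of the 6 PCGF genes at 0 h, and 5.20% ± 0.183 and 2.05% ± 0.285 in 96 h control (SD, n = 2). Their shares with CTCF depleted were 4.37% ± 0.922 and 2.32% ± 0.213. The share of BMI1 may be too low if reads in exons shared with COMMD3-BMI1 were left uncounted. PCGF3, of variant PRC1, had the largest share in all groups, at 31.4%, 46.7% and 48.3%.

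RING1 and RNF2, the ubiquitin ligases shared by all forms of PRC1, were called in none of the 3 comparisons. RNF2 stood at 40.5 and 44.5 CPM, 40.0 and 40.5 CPM and 42.6 and 46.5 CPM in the 3 groups, and its log2 fold changes were -0.09 ± 0.08, 0.15 ± 0.08 and 0.06 ± 0.08. RING1 stood at 35.4 and 28.5 CPM at 0 h, where its replicates differed most, at 26.1 and 23.4 CPM in 96 h control and at 27.1 and 27.4 CPM with CTCF depleted. It passed the test at conversion without reaching the size of a call (-0.35 ± 0.10, edgeR adjusted p = 0.00168), and had 0.14 ± 0.10 on depletion (edgeR adjusted p = 0.324). The value at conversion did not pass in DESeq2 (adjusted p = 0.0237), without the first library at 0 h (-0.21, edgeR adjusted p = 0.115) or without the second control library (-0.27, edgeR adjusted p = 0.0625), and it was -0.55 without the second library at 0 h.

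CBX7 and CBX8 were the members with the fewest reads, and their values on depletion were the least certain. CBX8 had 77 and 55 counts in 96 h control and 41 and 32 counts with CTCF depleted, or 6.80 and 5.09 against 3.80 and 2.95 CPM, beside 4.95 and 3.98 CPM at 0 h. The groups compared on depletion did not overlap, and the log2 fold change of -0.82 ± 0.25 was called (edgeR adjusted p = 0.00593). With 1 library left out it was no longer called, at log2 fold changes from -0.98 to -0.56, and in DESeq2 (-0.81, adjusted p = 0.0774). CBX7 had 25 and 39 counts in 96 h control and 39 and 76 counts with CTCF depleted. The second control and the first depleted library had equal counts, at 3.61 and 3.61 CPM, and the log2 fold change of 0.87 ± 0.28 missed the threshold (edgeR adjusted p = 0.0107). Its log2 fold change was 0.35 without the second CTCF-depleted library and 0.59 without the first control library, and 1.29 without the second control library, none of which was called. CBX7 had a log2 fold change of 1.31 without the first CTCF-depleted library and was called higher under 5 of the other settings, so neither gene gives a firm call in these libraries.

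Among other chromobox genes, CBX2 and CBX6 had more reads than CBX7 and CBX8 and gave firmer values. CBX2 stood at 86.0 and 79.7 CPM at 0 h, 30.3 and 34.1 CPM in 96 h control and 18.6 and 20.1 CPM with CTCF depleted, and both steps were called (-1.36 ± 0.08 and -0.73 ± 0.10, edgeR adjusted p = 1.98e-22 and 1.22e-08). CBX6 had log2 fold changes of 0.52 ± 0.06 and 0.21 ± 0.06, and its net difference from 0 h was called (0.73 ± 0.06, edgeR adjusted p = 1.90e-16). Per kilobase of exon, and set against CBX2, CBX6, CBX7 and CBX8 alone, CBX6 went from 47.4% ± 1.62 at 0 h to 73.5% ± 2.02 in 96 h control and 82.0% ± 2.65 with CTCF depleted, while CBX2 went from 46.2% ± 0.838 to 19.4% ± 2.06 and 11.3% ± 1.04 (SD, n = 2). The shares of CBX7 and CBX8 were each under 5% in the group means. CBX2 and CBX8 lie side by side on chromosome 17 with 4148 bases between them. Both were called lower on depletion, though the call of CBX8 was not firm, a grouping that was noticed after the values were seen. At conversion they differed in sign, as CBX8 had a log2 fold change of 0.44 ± 0.23 and was not called (edgeR adjusted p = 0.0842).

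Among the accessory subunits of PRC2, EPOP was called lower in both steps and PHF19 on depletion. EPOP, listed under its older symbol C17orf96, fell at conversion from 25.7 and 22.6 to 6.97 and 5.19 CPM and again on depletion to 3.33 and 2.76 CPM (-1.98 ± 0.16 and -1.0 ± 0.23, edgeR adjusted p = 6.46e-17 and 3.58e-04). PHF19, a reader of methylated H3 that recruits PRC2, stood at 49.1 and 51.03 CPM in 96 h control and 29.7 and 31.0 CPM with CTCF depleted (-0.72 ± 0.08, edgeR adjusted p = 2.48e-10). The 2 were the called genes among 9 tested on depletion, where 7.03% of all tested genes were called lower, and EPOP was 1 of 9 called at conversion, where 48.3% of all tested genes were called. In CTCF-depleted cells against 0 h, 4 of 9 were lower, with the histone chaperones RBBP4 (-0.78 ± 0.05) and RBBP7 (-0.86 ± 0.06) beside EPOP and PHF19, and 2 were higher, PHF1 (0.93 ± 0.11), a relative of PHF19, and LCOR (0.79 ± 0.06), beside 25.2% lower and 27.2% higher over all tested genes. The median over the list was -0.18, -0.18 and -0.33 in the 3 comparisons, beside 0.02, -0.03 and 0.02 over all tested genes. EZHIP, an inhibitor of PRC2, had no count in any library.

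Of 8 other canonical PRC1 subunits, 4 fell at conversion and 1 rose, beside 22.9% and 25.4% of all tested genes. PCGF2 and CBX2 were joined among those that fell by SCMH1 (-0.99 ± 0.07) and SCML2 (-0.94 ± 0.09), which carry the same type of domains as Drosophila Sex comb on midleg, and PHC3, a polyhomeotic scaffold, rose from 102 and 108 to 206 and 199 CPM (0.94 ± 0.05, edgeR adjusted p = 4.44e-23). On depletion 2 of 8 fell, beside 7.03% of all tested genes, which were CBX2 and SCML2 (-0.69 ± 0.11, edgeR adjusted p = 3.14e-07). The median of the list was -0.49 at conversion and -0.07 on depletion, beside 0.02 and -0.03 over all tested genes.

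Variant PRC1, the forms with RYBP or YAF2 in place of a CBX protein, was measured through 16 subunits, of which 2 rose and 4 fell at conversion, a share below the 48.3% of all tested genes called. AUTS2, which turns the PCGF3 or PCGF5 form towards activation, fell from 487 and 474 to 165 and 182 CPM (-1.47 ± 0.05), as did E2F6 (-0.76 ± 0.11), FBRSL1 (-0.70 ± 0.05) and L3MBTL2 (-0.65 ± 0.09). RYBP rose from 40.5 and 42.6 to 89.1 and 95.8 CPM (1.15 ± 0.08, edgeR adjusted p = 1.75e-20), and the corepressor BCOR from 137 and 142 to 305 and 343 CPM (1.21 ± 0.05, edgeR adjusted p = 6.35e-29). On depletion 0 of 16 were called by edgeR and by DESeq2, beside 12.4% of all tested genes called by edgeR. Of the 16, 6 had an unadjusted p under 0.05. On the adjusted p alone, with no limit on size, 1 was higher and 1 was lower, where 17.4% of tested genes were lower. The lower gene was BCOR (-0.50 ± 0.05, edgeR adjusted p = 1.68e-12), short of the size for a call. Whether the list differed between the comparisons was not tested. Against 0 h, PCGF6 (-0.69 ± 0.15) and FBRS (0.69 ± 0.07) were also called in CTCF-depleted cells.

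Enzymes that remove the Polycomb marks were also measured. ASXL3, a partner of the H2A deubiquitinase BAP1, fell from 22.6 and 30.4 CPM at 0 h to 2.12 and 3.52 CPM in 96 h control and to 1.02 and 1.20 CPM with CTCF depleted (-3.25 ± 0.19 and -1.33 ± 0.36, edgeR adjusted p = 1.64e-22 and 0.00222). Of the 10 genes in this list, MBD5 (0.68 ± 0.08) and MBD6 (0.83 ± 0.06) rose and ASXL3 alone fell at conversion, again a smaller share than over all genes, and ASXL2 (0.76 ± 0.05) and MYSM1 (0.62 ± 0.05) were added in CTCF-depleted cells against 0 h. KDM6A, which removes methyl groups from H3K27, rose from 108 and 108 to 199 and 204 CPM (0.90 ± 0.05, edgeR adjusted p = 3.61e-22) and had -0.25 ± 0.05 on depletion. KDM6B, its inducible relative, was not called (0.22 ± 0.06 and 0.17 ± 0.06).

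Genes that oppose Polycomb were examined as a further background. In the Trithorax and COMPASS list of 12 genes, KMT2C (0.86 ± 0.05) and ASH1L (0.67 ± 0.05), both histone methyltransferases, rose at conversion, and the core subunits RBBP5 (-0.71 ± 0.08) and DPY30 (-0.61 ± 0.14) fell, 4 of 12 called beside 48.3% of all tested genes. WDR5 (-0.68 ± 0.07) and MEN1 (-0.68 ± 0.08) were added among the lower genes in CTCF-depleted cells against 0 h. In the list of 17 SWI/SNF remodeller genes SMARCD3 rose from 1.55 and 0.975 to 10.8 and 8.80 CPM (3.0 ± 0.26), and SMARCD1 (-1.18 ± 0.06), ACTL6A (-0.97 ± 0.08), SMARCB1 (-0.84 ± 0.06) and the ATPase SMARCA4 (-0.77 ± 0.05) fell, 5 of 17 called. On depletion 0 of 12 and 0 of 17 were called by edgeR and by DESeq2, beside 12.4% of all tested genes called by edgeR. In the 2 lists 4 and 7 genes had an unadjusted p under 0.05. On the adjusted p alone, with no limit on size, 2 of 12 were lower and 0 higher. By the same measure 4 of 17 were lower and 1 higher, where 17.4% of tested genes were lower.

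Classical Polycomb targets were then read out, the HOX genes and CDKN2A. Of 41 target genes 35 were too low to be tested, with at most 9 counts in a library and 28 of them without a count. HOXA2 to HOXA6 entered the test through their level at 0 h, so a difference was built into their selection and is given as a description. HOXA5 stood at 17.02 and 16.9 CPM at 0 h, and HOXA3 and HOXA6 at 7.74 and 7.35 and 7.12 and 7.65 CPM. In the 96 h libraries each of the 5 genes had 3 counts or fewer, so that 96 h control was lower than 0 h by at least 62.5-fold for HOXA5, at least 27.8-fold for HOXA3, at least 27.2-fold for HOXA6, at least 8.19-fold for HOXA4 and at least 5.12-fold for HOXA2, taking 3 counts per library as the floor. Whether the counting used strand is not stated, so antisense transcripts of the HOXA cluster cannot be told apart from these genes. CDKN2A, which encodes 2 tumour suppressors and is a known target of BMI1, went the other way. It stood at 16.9 and 18.5 CPM at 0 h, 80.9 and 75.7 CPM in 96 h control and 36.0 and 36.6 CPM with CTCF depleted, without overlap. It rose by 2.14 ± 0.09 at conversion (edgeR adjusted p = 5.53e-30) and its value on depletion was -1.11 ± 0.08 (edgeR adjusted p = 6.07e-18), which left it above 0 h (1.03 ± 0.10). CDKN2B had 1 count in 1 library.

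Proliferation genes were lower in both steps, as EZH2 was. Of 16 genes, 14 fell at conversion and 9 on depletion, and all 16 were lower in CTCF-depleted cells than at 0 h, beside 22.9%, 7.03% and 25.2% of all tested genes. The median log2 fold changes were -1.07, -0.65 and -1.66. The summed level of the list was 5006–5089 CPM at 0 h, 2724–2769 CPM in 96 h control and 1771–1782 CPM with CTCF depleted. MCM2 (-1.65 ± 0.06 and -0.74 ± 0.07), MCM4 (-1.50 ± 0.05 and -0.56 ± 0.05) and MCM7 (-1.45 ± 0.05 and -0.68 ± 0.05) of the replicative helicase, the cyclin gene CCNA2 (-0.90 ± 0.07 and -0.85 ± 0.08), the mitotic kinase gene AURKB (-1.09 ± 0.07 and -0.68 ± 0.09) and the nucleotide enzyme gene RRM2 (-1.11 ± 0.05 and -0.59 ± 0.06) had the largest net differences. The part of this difference in the values of EZH2, SUZ12, BMI1 and the other members was not tested.

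Several E2F factors, which bind cell cycle promoters, fell as well. E2F1 stood at 117 and 106, 33.3 and 33.6 and 19.5 and 22.3 CPM in the 3 groups (-1.74 ± 0.08 and -0.68 ± 0.10), and E2F2 at 276 and 264, 111 and 119 and 50.6 and 47.0 CPM (-1.23 ± 0.06 and -1.24 ± 0.07). E2F5 (-2.52 ± 0.14) and E2F7 (-1.49 ± 0.08) fell at conversion, and E2F8 (-1.02 ± 0.09), TFDP2 (-0.75 ± 0.08) and the retinoblastoma relative RBL1 (-0.61 ± 0.07) fell on depletion. RBL2, a relative known from resting cells, rose at conversion (0.89 ± 0.06). Over the 12 genes of the list 4 fell and 1 rose at conversion, and 5 fell on depletion, beside 22.9%, 25.4% and 7.03% of all tested genes.

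Genes with the profile most like that of each member were sought among tested genes with a mean of at least 10 CPM, by the Euclidean distance between centred log2 CPM values over the 6 libraries. The distances describe likeness over these libraries, which are 3 groups of 2, and carry no test. For EZH2 the nearest were SAPCD2 (distance 0.0787) and CDCA3 (0.0928), a cell division gene. For EZH1 they were FBXO38 (0.0814), LOC101928451 (0.0877) and VPS37A (0.0917), and for SUZ12 SFPQ (0.0237), NELFB (0.0585) and DLG5 (0.0614). SFPQ, a splicing factor, was thus the closest match found for any member. EED had more distant neighbours, NRBP2 (0.197), SLFN5 (0.202) and TRPV1 (0.234). JARID2 was nearest to GGA2 (0.0826), RRM2B (0.106) and KIAA1432 (0.116).

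Among the PRC1 genes, BMI1 was nearest to FIGNL1 (0.226), SUV39H2 (0.267), a histone H3 lysine 9 methyltransferase, and NME4 (0.282). RING1 was nearest to GLIS2 (0.111), ATP5E (0.111) and EIF2B1 (0.139), and RNF2 to TCEB3 (0.0696), NBN (0.0864) and LRCH1 (0.0960). The genes nearest to CBX8 were HMGB2 (0.350), OAF (0.363) and SLC25A29 (0.366), and those nearest to CBX7 were ST7 (0.560), GNB5 (0.705) and CIPC (0.724). Distances were largest for CBX7 and CBX8, the members with the fewest counts.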

How the data were processed

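Total RNA depleted of ribosomal RNA was sequenced as 6 libraries, 2 biological replicates in each of 3 groups, which were assigned from the labels. The deposited values are raw read counts per gene. The authors made them with nf-core/rnaseq, aligning with STAR 2.6.1d to hg38 and counting with featureCounts 2.0.6, per their methods over protein-coding exons, although the deposited table also lists noncoding genes such as the pseudogene SUZ12P1. The annotation release and the strand setting are not given in the sources used here. The 14758 genes tested held 99.9% of the counts of each library.

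Counts were tested with edgeR 4.0.16 in R 4.3.3 (TMM, filterByExpr, quasi-likelihood test, 1 fit over all 6 libraries), with Benjamini-Hochberg adjustment over all genes tested. The biological coefficient of variation was 3.96%. The test drew the spread of a gene largely from all genes (prior degrees of freedom 51.7), and its own part rests on 2 libraries per group. Standard errors and p-values therefore do not measure the spread of a gene's own libraries alone. On simulated counts for CTCF-depleted against 96 h control (14718 genes, 200 changed 2-fold), edgeR recovered all 200 and DESeq2 188, with 0 false calls. The simulation gave every gene the same spread, unlike real genes. Its changed genes were drawn above a minimum level that CBX7 and CBX8 did not reach, so recovery at their level was not tested. Levels per kilobase used the exons of coding transcripts in GENCODE release 44, and promoter windows came from RefSeq. Alternatives were RLE and upper-quartile normalization, DESeq2 1.42.0, other filters and thresholds, a fit of 4 libraries, a replicate block, leaving out each library, and, chosen after seeing the data, MANE Select lengths. Same-numbered replicates did not deviate together (correlations -0.0101, 0.0320 and -0.0127), so they were not treated as pairs. Chi-square per degree of freedom between replicates was 1.75 to 2.81, so no library was a copy of another.

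The rule for the members uses no measured value, but the members and lists were chosen with earlier results of these data known. Named genes were all members, the called genes of the Polycomb, deubiquitinase and demethylase lists, up to 6 called genes with the largest change in each other list, and the 3 genes nearest to each member in profile. Some genes that met these rules are not reported here, and list counts and shares leave them out. Marker lists were summed over their genes within each library.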

Additional observations from a re-analysis of the deposited data

How the results depend on the processing

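Of 333 recomputed values for single members, 313 kept their direction and their side of the threshold, 6 gained a call, 5 lost one and 9 changed sign. The 9 were all small values that were not called: EED at conversion (-0.126 to 0.000726 with 1 library left out), EZH1 on depletion in the fit of 4 libraries (0.0186), without a filter (0.0175), with upper-quartile normalization (0.0202) and with 1 library left out (-0.0624 to 0.0995), RNF2 against 0 h with upper-quartile normalization (-0.0197), and CBX7 against 0 h (-0.155 to 0.773 with 1 library left out). The 5 lost calls were those of CBX8 on depletion and the 6 gained those of CBX7. PRC1 genes higher on depletion thus numbered 1 instead of 0 with at least 10 counts in every library, in the fit of 4 libraries, without a filter, with upper-quartile normalization and under the replicate block (CBX7 0.86, edgeR adjusted p = 0.00995), and 0 to 1 with a library left out. PRC1 genes lower on depletion numbered 0 in DESeq2, and 0 to 0 with a library left out. The replicate block changed no other call of a member. With an adjusted p under 0.05 and no limit on size, lower PRC2 genes numbered 2 at conversion, 3 on depletion and 2 against 0 h, lower PRC1 genes 2 at conversion and 2 against 0 h, and higher PRC1 genes 1 on depletion. With a log2 fold change above 1 required, the count was 0 for PRC2 lower at conversion, PRC2 higher on depletion and against 0 h, and PRC1 lower on depletion. The EZH2 to EZH1 ratio was 5.92, 1.71 and 1.26 with MANE Select lengths and 3.39, 0.982 and 0.719 on raw counts, as the lengths differ. Upper-quartile normalization moved the median of all genes by -0.12 at conversion. Except for the length effect and the fewer counts or libraries used, the cause was not tested. Depth limited CBX7 and CBX8, with 25 to 77 counts per library.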
